A study of Mus musculus with 26 samples.

Results

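To describe how Wnt ligands and their secreted antagonists vary with diet in visceral fat, 10 genes were taken by symbol from the gene counts of adipocytes and from those of the stromal vascular cells (SVC): the ligands Wnt5a, Wnt5b, Wnt10b and Wnt11, the secreted frizzled-related proteins Sfrp1, Sfrp2, Sfrp4, Sfrp5 and Frzb, and the Dickkopf family member Dkk3. All 10 symbols were found, among 39017 genes in both tables. Male C57BL/6J mice aged 9 to 10 weeks entered 1 of 3 diet groups: 12 weeks of a diet with 10% of energy from fat (LFD), 12 weeks of a diet with 60% (HFD), or 9 weeks of the HFD followed by 3 weeks of the LFD (SW). Their epididymal fat was digested with collagenase and divided into floating adipocytes and sedimented SVC, and both fractions were sequenced. The libraries used number 3 for each diet group in adipocytes and 1 LFD, 2 HFD and 3 SW for the SVC, and they are named here by the numbers of the deposited columns. No label names an engineered allele, and all groups share the strain, the sex and the depot. No source ties a column to a mouse, so that p-values measure the spread between these libraries.

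Wnt proteins are lipid-modified secreted ligands that bind Frizzled receptors, together with the coreceptors Lrp5 and Lrp6 for the β-catenin branch or with Ror and Ryk receptors for branches that do not need β-catenin. Secreted frizzled-related proteins carry a Frizzled-like domain that binds Wnt proteins outside the cell, and Frzb belongs to this family. Dkk3 is the divergent member of the Dickkopf family, whose founding members block Lrp coreceptors. In fat, β-catenin signalling holds back the conversion of progenitors into adipocytes, Wnt10b being the ligand best known for this, while Wnt5a and Wnt11 act mainly through the other branches. Sfrp5 is known as a protein made by adipocytes that binds Wnt5a.

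The library totals ran from 5781902 to 23725647 counts, and the LFD libraries 404 (6142895 counts) and 236 (5781902 counts) were among the smallest. A floor of 3 counts equals 0.126 to 0.519 counts for each 1000000 counts of the library (CPM), depending on the library. The adipocyte marker Adipoq lay between 710 and 3939 CPM in the adipocyte libraries and between 13.6 and 80.5 CPM in the SVC libraries, as the labels of the fractions have it. The 2 HFD libraries of the SVC were unlike each other, with 6.34% of the counts from mitochondrial transcripts in library 212 and 33.5% in library 411. The single LFD library of the SVC held 590 CPM of the mesothelial marker Upk3b, against 7.70 to 115 CPM in the other SVC libraries. In the HFD adipocyte libraries 9 genes were present in all of them and listed at 0 in every LFD and SW adipocyte library, and 8 genes showed the opposite. For the LFD adipocyte libraries these numbers were 0 and 6, and for the SW adipocyte libraries 0 and 0. In bulk RNA, fewer cells of a type and less RNA per cell cannot be told apart.

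All 10 genes could be placed on GRCm38 with the GENCODE M21 annotation. Sfrp5 (ENSMUSG00000018822) lies on the minus strand of chromosome 19 at 42197971-42202252, and Wnt5b (ENSMUSG00000030170) on the minus strand of chromosome 6 at 119432531-119544347. Wnt11 (ENSMUSG00000015957) lies on the plus strand of chromosome 7 at 98835112-98855195, and Frzb (ENSMUSG00000027004) on the minus strand of chromosome 2 at 80411970-80447625. Exons of Sfrp2, Wnt5a and Wnt11 overlap an annotated gene on the opposite strand (Gm26771, Gm2670 and Gm8398), and since no source used here says that the counting used strand, reads of these pairs cannot be told apart. RefSeq promoter sequences (GRCm38.p6) were found for 6 of the 10 genes; Sfrp1, Sfrp4, Dkk3 and Wnt5a had no entry. The 250 bases before the start are shown for Sfrp5, Wnt5b and Wnt11, which were lower in HFD than in LFD adipocytes and whose windows end directly before the first base of the GENCODE gene. For Wnt5b and Wnt11, which have several annotated starts, the most upstream is shown; the counts are per gene and do not say which start was used. Capitals mark matches on either strand to 4 motifs. The TATA box was searched as TATAAA. The GC box was searched as GGGCGG. The third was the CCAAT box, searched by the letters of its name. The motif of TCF and LEF, the factors that carry β-catenin to its targets, was searched as CTTTGAT.

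Sfrp5, chr19:42202253-42202502, minus strand: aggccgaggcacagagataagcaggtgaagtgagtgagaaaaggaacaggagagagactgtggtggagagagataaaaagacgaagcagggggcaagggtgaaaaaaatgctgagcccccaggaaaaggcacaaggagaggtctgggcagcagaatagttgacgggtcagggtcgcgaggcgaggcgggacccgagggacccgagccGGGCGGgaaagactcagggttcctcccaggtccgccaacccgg

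Wnt5b, chr6:119544348-119544597, minus strand: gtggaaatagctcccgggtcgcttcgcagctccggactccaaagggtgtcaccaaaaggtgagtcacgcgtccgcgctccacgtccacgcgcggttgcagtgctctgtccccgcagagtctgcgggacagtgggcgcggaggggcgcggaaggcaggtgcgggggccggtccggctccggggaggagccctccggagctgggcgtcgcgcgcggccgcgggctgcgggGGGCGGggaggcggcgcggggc

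Wnt11, chr7:98834862-98835111, plus strand: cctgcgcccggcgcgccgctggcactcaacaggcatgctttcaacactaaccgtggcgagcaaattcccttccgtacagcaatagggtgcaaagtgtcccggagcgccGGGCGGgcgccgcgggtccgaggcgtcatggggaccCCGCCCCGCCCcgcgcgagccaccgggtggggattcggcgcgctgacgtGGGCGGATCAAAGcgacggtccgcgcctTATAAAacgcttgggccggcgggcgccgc

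The GC box was the motif present in all 3 windows, and it is found in 32.7% of the 32851 RefSeq promoter windows of this length. Its match began 43 bases before the start in Sfrp5 and 22 bases before in Wnt5b. Wnt11 held 4 GC boxes, 2 of them overlapping by 1 base, together with a TATA box 29 bases before the start and a TCF and LEF motif on the other strand 51 bases before the start, directly beside a GC box. Among the windows of Wnt5b and Wnt11 that are not shown, a downstream one of Wnt5b (chr6:119449387-119449636) held a TCF and LEF motif 71 bases before its start. It also held 2 GC boxes, and the other windows not shown of these genes held no match. The TCF and LEF motif occurs in 3.21% of all windows, the TATA box in 12.4% and the CCAAT box in 33.8%. The base composition differed among the 3 windows, with 59.6% G and C in Sfrp5, 70.8% in Wnt11 and 75.2% in Wnt5b, against a median of 52.4% over all windows.

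Sfrp5 had the highest mean level of these genes in adipocytes and Sfrp2 in SVC. Levels are given as CPM scaled with TMM factors over all 15 libraries and, between genes, as CPM per kilobase of the longest annotated transcript. In LFD adipocytes, Sfrp5 had a mean level of 97.7 CPM per kilobase, followed by Sfrp2 with 4.92, Sfrp1 with 2.99 and Wnt5a with 2.63. The lowest Sfrp5 library lay above the highest library of every other member in each adipocyte group, while the libraries of Sfrp2 and Sfrp1, and of Sfrp1 and Wnt5a, overlapped. In SVC of SW mice, the mean level was 23.5 CPM per kilobase for Sfrp2, 12.0 for Sfrp1 and 7.29 for Sfrp4, and these 3 antagonists were followed by Wnt5b with 6.30, Wnt11 with 5.92 and Sfrp5 with 5.599. In this group Sfrp2 and Sfrp1 were apart from the next gene, but Sfrp4, Wnt5b and Wnt11 each overlapped the next. In SVC of HFD mice Sfrp2 overlapped Sfrp4 (8.52 to 23.2 against 7.03 to 15.5 CPM per kilobase), and in library 212 Sfrp1, at 10.5 CPM per kilobase, was above Sfrp2. Frzb had the lowest mean of the 10 in the SVC of each diet group, with 0.208 to 0.473 CPM per kilobase. With the median in place of the longest transcript length, Sfrp5 remained first in adipocytes and Sfrp2 in SVC, while several of the other members changed place. The levels of all 10 genes in every library are drawn in the plot by library.

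**Figure D1:**
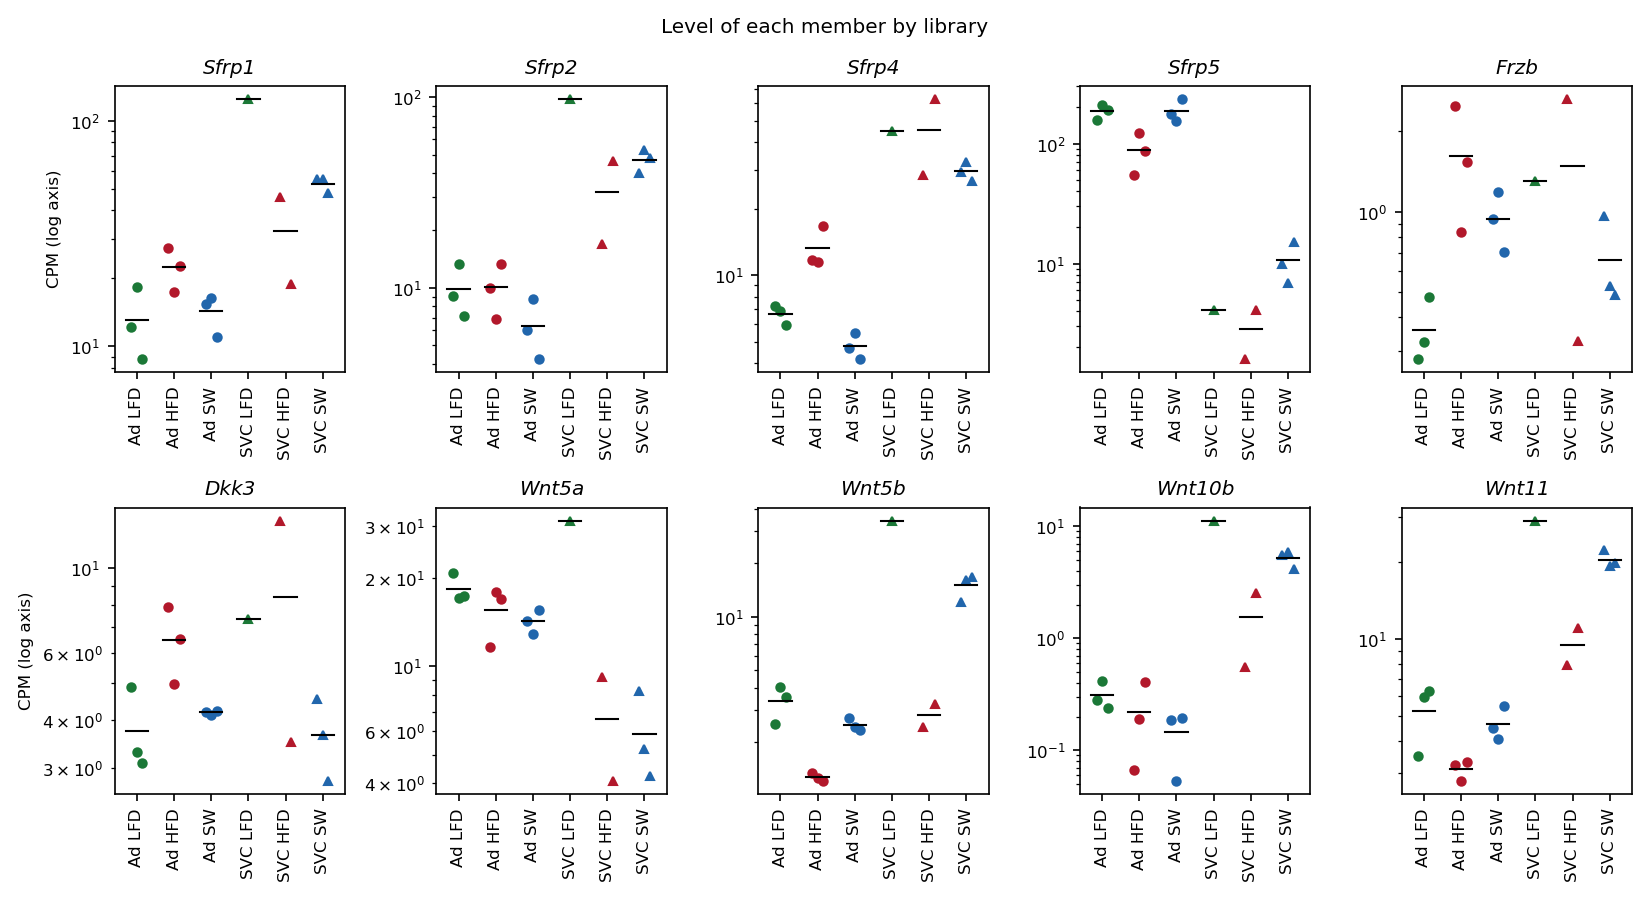
Level of each of the 10 genes in CPM (log axes, which differ between panels) in the 15 libraries, by fraction (Ad, adipocytes, circles; SVC, triangles) and diet group; points are libraries and bars are group means. Sfrp5 lies between 54.6 and 235 CPM in adipocytes and between 1.60 and 15.1 CPM in SVC, while the highest value of Wnt5b and of Wnt10b is that of the single LFD library of the SVC.

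Between HFD and LFD mice, 7 of the 9 members tested in adipocytes differed with an adjusted p-value under 0.05 in edgeR's quasi-likelihood test, 4 higher and 3 lower in HFD mice. Of all 14461 genes tested, 51.5% differed, 26.5% higher and 25.0% lower. The antagonists Sfrp1, Sfrp4, Frzb and Dkk3 rose, and the antagonist Sfrp5 and the ligands Wnt5b and Wnt11 fell. The groups of 6 of the 9 members did not overlap, against 62.3% of all genes. The median log2 fold change of the members was -0.01, against -0.03 for all genes. The count was 4 without the HFD library 403 and 4 without the LFD library 406.

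Sfrp5 fell. Its level was 156, 211 and 190 CPM in the LFD libraries and 54.6, 122 and 86.1 CPM in the HFD libraries. Each HFD library was below each LFD library, and the means were 186 ± 28.0 CPM in LFD and 87.6 ± 33.7 CPM in HFD mice (SD, n = 3 each). The log2 fold change was -1.10 (standard error, SE, 0.27, adjusted p = 0.00639), and it stayed past the threshold without any 1 of the 6 libraries.

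The other frizzled-related proteins went the other way or did not differ. Sfrp4 had 7.25, 6.86 and 5.94 CPM in LFD and 11.7, 11.5 and 16.7 CPM in HFD mice. The groups did not overlap, and Sfrp4 rose with a log2 fold change of 0.97 (SE 0.19, adjusted p = 0.00212). Frzb, which is also called sFRP3, rose from a very low level, from 2, 7 and 4 counts in the LFD libraries to 37, 22 and 38 counts in the HFD libraries. Its levels were 0.279 to 0.475 CPM in LFD and 0.835 to 2.48 CPM in HFD mice, without overlap, and the log2 fold change was 2.13 (SE 0.51, adjusted p = 0.00594). The ratio of the pooled counts was 4.22, with an exact 95% interval for counting error alone of 2.35 to 8.21. Sfrp4 and Frzb remained past the threshold without any 1 library.

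Sfrp1 and Dkk3 rose by less. Sfrp1 had 12.1, 18.3 and 8.79 CPM in LFD and 27.2, 17.4 and 22.6 CPM in HFD mice, a log2 fold change of 0.72 (SE 0.27, adjusted p = 0.0461). The groups overlapped, since the HFD library 402 lay below the LFD library 405. Dkk3 had 4.88, 3.32 and 3.09 CPM in LFD and 7.92, 4.97 and 6.51 CPM in HFD mice, which did not overlap, and its log2 fold change was 0.78 (SE 0.24, adjusted p = 0.0213). Both calls rest on single libraries: that of Sfrp1 was lost without 401, 403, 404 or 406, with an adjusted p of up to 0.145, and that of Dkk3 without 401, 403, 405 or 406, with an adjusted p of up to 0.0899. Sfrp1 also lost its call in 4 of 8 other ways of processing (limma-voom, upper-quartile factors, thinning and the compared groups alone), with an adjusted p of up to 0.0715, and Dkk3 lost it after thinning (adjusted p = 0.128). Sfrp2 had 9.86 ± 3.21 CPM in LFD and 10.1 ± 3.26 CPM in HFD mice (SD, n = 3 each), a log2 fold change of -0.01 (SE 0.33, adjusted p = 0.978).

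Among the ligands, Wnt5b fell most. It had 2.51, 4.05 and 3.56 CPM in LFD and 1.34, 1.25 and 1.21 CPM in HFD mice, from 18 to 88 counts per library. The groups did not overlap, and the log2 fold change was -1.45 (SE 0.25, adjusted p = 9.48e-04), past the threshold without any 1 library. Wnt11 had 3.49, 5.94 and 6.30 CPM in LFD and 3.22, 2.81 and 3.32 CPM in HFD mice, and fell with a log2 fold change of -0.79 (SE 0.24, adjusted p = 0.0193). The highest HFD library of Wnt11 was close below LFD library 404, and the call was lost without 402, 403, 405 or 406, with an adjusted p of up to 0.0879. Wnt5a, the most abundant ligand of the 4 in adipocytes, had 18.4 ± 2.04 CPM in LFD and 15.5 ± 3.35 CPM in HFD mice (SD, n = 3 each), with overlapping groups, and its log2 fold change was -0.26 (SE 0.17, adjusted p = 0.232). Wnt10b had 2, 9 and 2 counts in the LFD, 1, 5 and 10 in the HFD and 2, 1 and 3 in the SW libraries, and did not pass the filter on low counts. Differences of Wnt10b between the diets were not detectable in adipocytes at this depth.

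**Figure D2:**
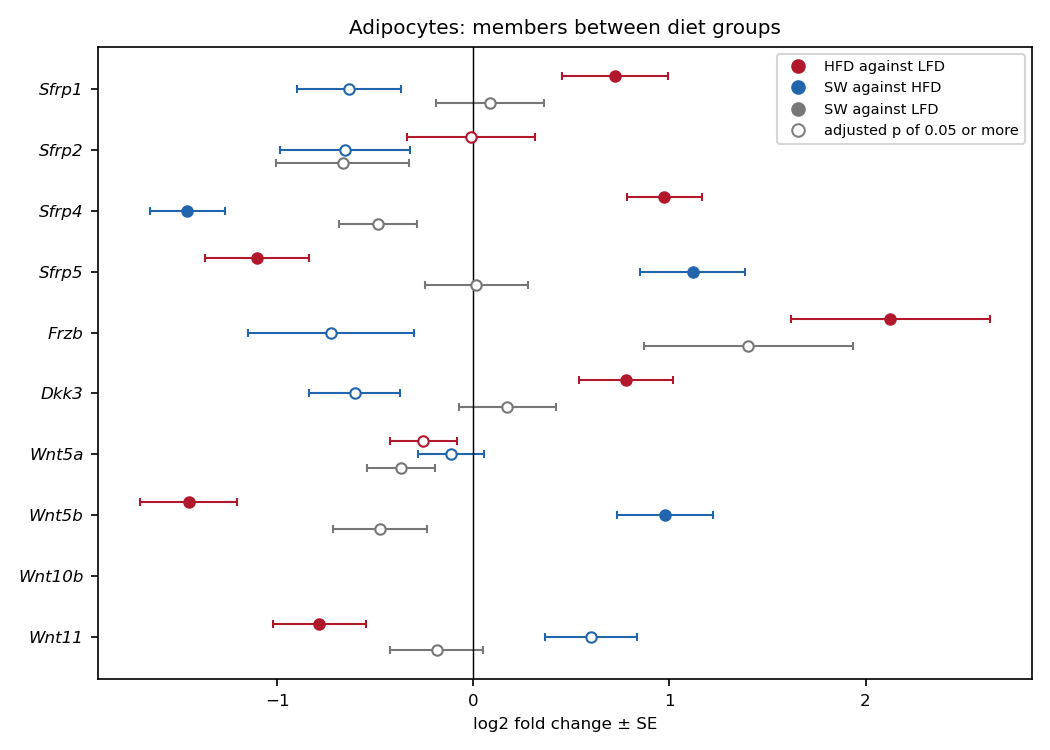
Log2 fold changes of the 9 members tested in adipocytes, with SEs as bars, for HFD against LFD, SW against HFD and SW against LFD mice; filled points have an adjusted p under 0.05. The HFD values of Sfrp4 (0.97) and Sfrp5 (-1.10) lie opposite to their SW against HFD values (-1.46 and 1.12), and all points of SW against LFD are open.

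Markers of other cells moved with the diets in the same libraries. The 10 markers of fibroblasts and progenitors summed to 2001 to 2957 CPM in LFD, 5401 to 7291 CPM in HFD and 3529 to 4117 CPM in SW adipocytes, and 5 of them rose and 1 fell in HFD against LFD mice. The 10 macrophage markers measured rose in HFD adipocytes, all of them past the threshold, from sums of 606 to 997 CPM to sums of 7132 to 8128 CPM, with 5333 to 8038 CPM in SW mice, where 4 of the 10 were lower than in HFD mice past the threshold. Of the 10 mesothelial markers 7 fell, from sums of 93.9 to 187 CPM in LFD to 13.1 to 45.4 CPM in HFD mice, and 4 of the 7 mural, 6 of the 8 endothelial and all 4 red cell markers fell as well. The 10 adipocyte markers summed to 28861 to 46458 CPM in LFD, 10663 to 18129 CPM in HFD and 25453 to 26171 CPM in SW adipocytes, and 8 of them fell in HFD mice. The part of these shifts in the changes of the Wnt genes was not tested. Per 1000 CPM of Adipoq, Sfrp5 had 48.3 to 77.1 CPM in LFD, 76.8 to 111 CPM in HFD and 76.4 to 118 CPM in SW adipocytes, so that the HFD range was not below the others on this scale. No other adipocyte marker was used as the scale. Adipoq was lower in HFD than in LFD adipocytes without overlap, as were the other markers of the list except Lep and Plin1. Lep had 922 to 1506 CPM in LFD and 917 to 2194 CPM in HFD adipocytes, and Plin1 347 to 486 and 191 to 388 CPM.

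After the switch to the LFD, 3 of the 9 members differed between SW and HFD adipocytes in the same fit, Sfrp5 and Wnt5b being higher and Sfrp4 lower in SW mice. The share of all genes was 31.4%, 15.6% higher and 15.9% lower. The comparisons with HFD mice share the 3 HFD libraries, so the moves toward and away from the HFD level are not independent. Sfrp5 had 175, 155 and 235 CPM in SW libraries, each above each HFD library, a log2 fold change of 1.12 (SE 0.27, adjusted p = 0.0141). Wnt5b had 2.72, 2.41 and 2.31 CPM in SW libraries, also above all HFD libraries, with a log2 fold change of 0.98 (SE 0.25, adjusted p = 0.0170). Sfrp4 had 4.68, 5.47 and 4.18 CPM in SW libraries, below all HFD libraries and also below all LFD libraries, with a log2 fold change of -1.46 against HFD mice (SE 0.19, adjusted p = 0.00316). Without the HFD library 403 the calls of Sfrp5 (adjusted p = 0.0556) and Wnt5b (adjusted p = 0.0746) were lost and 1 member remained, and that of Wnt5b was also lost after thinning to the smallest library (adjusted p = 0.0887), while Sfrp4 passed without any 1 library.

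The remaining members did not pass between SW and HFD adipocytes. Sfrp1 (log2 fold change -0.63, SE 0.27, adjusted p = 0.0924), Dkk3 (-0.60, SE 0.23, adjusted p = 0.0709) and Wnt11 (0.60, SE 0.24, adjusted p = 0.0750) had groups that did not overlap. In all, the groups of 6 of the 9 members did not overlap, against 48.3% of all genes. Dkk3 was nearly the same in the SW libraries, 4.20 ± 0.0576 CPM (SD, n = 3), and passed without the HFD library 402 (adjusted p = 0.0338). Sfrp2, Frzb and Wnt5a had log2 fold changes of -0.65, -0.72 and -0.11 with adjusted p-values of 0.152, 0.208 and 0.631.

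Between SW and LFD adipocytes, 0 of the 9 members passed the threshold, against 17.1% of all genes, 10.9% higher and 6.18% lower. With a smallest adjusted p of 0.1004, that of Frzb, in the fit of the 3 groups, none passed under any of the alternatives either, DESeq2 and limma-voom included, and 2 of the 9, Frzb and Sfrp4, had an unadjusted p under 0.05 in edgeR's test. Frzb had 0.937, 1.18 and 0.707 CPM in SW libraries, all above the LFD libraries, with a log2 fold change of 1.40 (SE 0.53). The groups also did not overlap for Sfrp4 (log2 fold change -0.49, SE 0.20, adjusted p = 0.127) and for Wnt5a (-0.37, SE 0.17, adjusted p = 0.175), both lower in SW mice, so that 3 of 9 members were without overlap, against 36.5% of all genes. For Sfrp5 the log2 fold change was 0.01 (SE 0.26), and for Sfrp1 0.09 (SE 0.28), which does not show that the groups were alike.

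The ratios of Sfrp5 to Wnt5a and Wnt5b were computed within each library, where scaling plays no part. There were 7.50, 12.3 and 10.96 counts of Sfrp5 per count of Wnt5a in LFD adipocytes, 4.67, 6.81 and 5.08 in HFD adipocytes, and 12.2, 12.1 and 15.05 in SW adipocytes. The HFD libraries were below all others, with an exact two-sided permutation p of 0.1 against LFD and against SW mice, the smallest that 3 against 3 libraries allow (adjusted p = 0.167 over 15 such tests). Per count of Wnt5b there were 52.1 to 62.1 counts of Sfrp5 in LFD, 40.7 to 97.5 in HFD and 64.3 to 101.6 in SW adipocytes, and the HFD range overlapped both others. Wnt5a counts per Wnt5b count were higher in HFD libraries than in all others, with 8.28, 4.23 and 4.87 in LFD, 8.70, 14.3 and 14.0 in HFD and 5.28, 5.33 and 6.75 in SW adipocytes, with the same exact p. Of the summed CPM of Sfrp1, Sfrp2, Sfrp4, Sfrp5 and Frzb, Sfrp5 made up 84.4% to 89.5% in LFD, 51.5% to 76.9% in HFD and 83.0% to 92.1% in SW adipocytes. In SVC, Sfrp5 made up 1.51% to 10.9% of this sum.

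**Figure D3:**
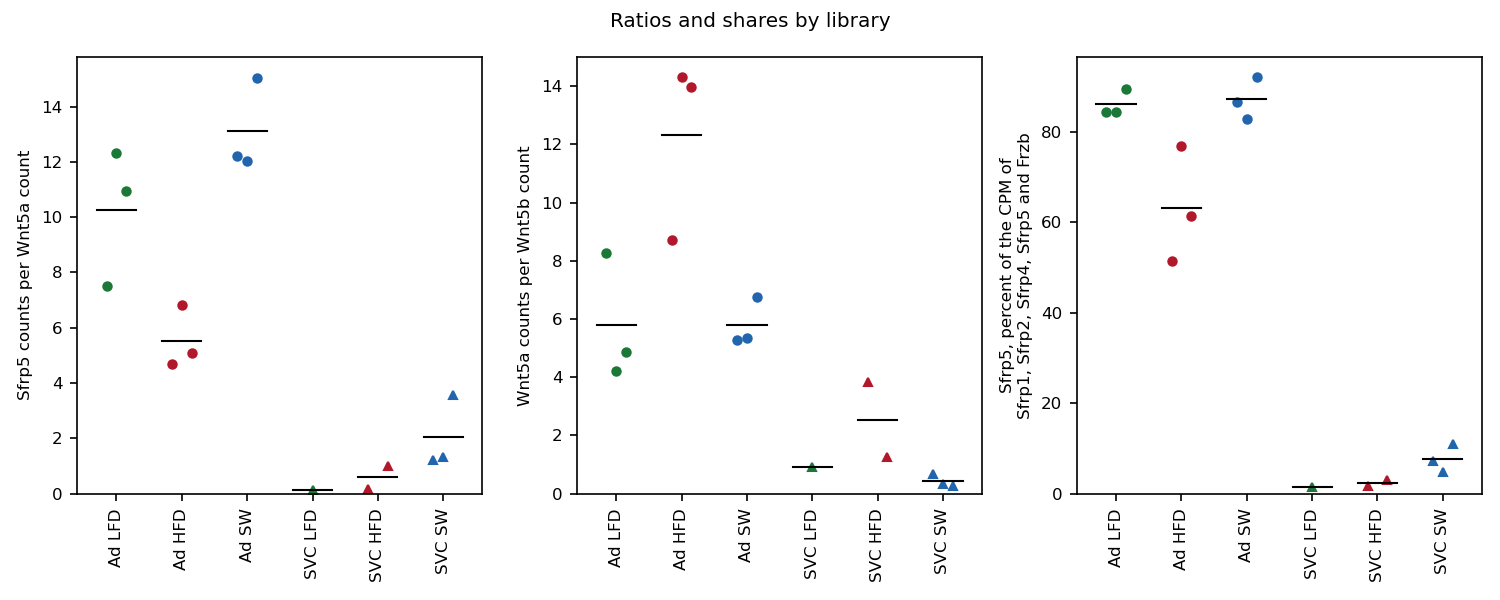
Counts of Sfrp5 per count of Wnt5a, counts of Wnt5a per count of Wnt5b, and Sfrp5 as a percentage of the summed CPM of 5 frizzled-related genes, in each library by fraction (Ad, adipocytes, circles; SVC, triangles) and diet group, with bars for group means. The HFD adipocytes, at 4.67 to 6.81 Sfrp5 counts per Wnt5a count, lie below the LFD and SW adipocytes, and the SVC libraries lie between 0.131 and 3.57.

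In the SVC, the single LFD library held the highest level of all 4 ligands, and without replicates no test was made against it. Wnt5b had 34.5 CPM in the LFD library, 2.40 and 3.26 CPM in the HFD libraries and 12.1 to 16.7 CPM in the SW libraries. The LFD value was 12.2 times the HFD mean and 2.31 times the SW mean. Wnt10b had 11.3 CPM in the LFD library, 0.555 and 2.53 CPM in the HFD libraries and 4.12 to 5.88 CPM in the SW libraries, in the same order as Wnt5b. Wnt11, with 29.0 CPM in the LFD library, 7.95 and 11.02 CPM in the HFD libraries and 19.2 to 22.3 CPM in the SW libraries, had this order as well. Wnt5a was at 31.4 CPM in the LFD library and low in both other groups, 9.18 and 4.08 CPM in HFD and 4.24 to 8.24 CPM in SW libraries.

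Among the antagonists of the SVC, Sfrp1 had 125 CPM in the LFD library, 46.1 and 18.9 CPM in the HFD libraries and 47.8 to 55.1 CPM in the SW libraries. Sfrp2 had 97.7 CPM in the LFD library, 17.1 and 46.5 CPM in the HFD libraries and 39.9 to 52.9 CPM in the SW libraries. Sfrp4, at 44.9 CPM in the LFD library, lay between the HFD libraries, 28.5 and 62.8 CPM. In all, 6 of the 10 members were at least 2-fold higher in the LFD library than in both HFD libraries, against 16.9% of all genes, and 0 were at least 2-fold lower, against 20.0%. Against the SW libraries, 3 of 10 were at least 2-fold higher in the LFD library, against 9.19% of all genes, and 0 at least 2-fold lower, against 11.5%. Sfrp5 was the member lower in the LFD library than in all SW libraries, 4.12 CPM against 6.93 to 15.1 CPM. The same LFD library held the most of the mesothelial markers, 1249 CPM in sum against 34.4 to 223 CPM in the other SVC libraries. The same held for the fibroblast and progenitor markers, 21005 CPM against 8675 to 14073 CPM. Endothelial (1467 CPM against 371 to 790 CPM), mural (1225 CPM against 257 to 830 CPM) and red cell markers (64535 CPM against 2315 to 47212 CPM) were highest there too. Its macrophage markers were the lowest, 9468 CPM against 10264 to 22538 CPM. The sums of the remaining marker lists lay within the range of the other SVC libraries. Single markers of epididymal and other epithelium did not. Lcn8 had 54.4 CPM in the LFD library, against at most 0.0816 CPM in the others, and Ly6g5c 15.2 CPM, against at most 0.0506 CPM. Epcam (6.50 CPM) and Cdh1 (7.15 CPM) were highest there too, while Crisp1 and Lcn5 lay within the range and Spint4 was at 0. The part of these markers in the high levels of the LFD library was not tested.

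Between SW and HFD mice, Wnt5b and Wnt11 rose in the SVC, as 2 of 10 members tested, against 17.5% of all genes, 5.71% higher and 11.7% lower. Wnt5b had a log2 fold change of 2.31 (SE 0.33, adjusted p = 0.0362), and Wnt11 of 1.02 (SE 0.26, adjusted p = 0.0451). All SW libraries were above both HFD libraries for these genes. The groups were also apart, with SW above HFD, for Sfrp1, Sfrp5 and Wnt10b, in all 5 of 10 members against 31.3% of all genes. Sfrp5 had 1.60 and 4.08 CPM in HFD and 6.93 to 15.1 CPM in SW libraries (log2 fold change 1.85, SE 0.57, adjusted p = 0.0637). Adipoq, at 13.6 and 36.7 CPM in HFD and 36.8 to 80.5 CPM in SW libraries of the SVC, moved with Sfrp5. The 10 adipocyte markers as a list went both ways. Their sums were lower in SW (794 to 1147 CPM) than in HFD libraries (1152 and 1396 CPM), while their median log2 fold change was 0.91. Past the threshold, 0 of them rose and 1 fell. The part of the adipocyte markers in the difference of Sfrp5 was not tested. Wnt10b had a log2 fold change of 1.70 (SE 0.65, adjusted p = 0.101). Of the 7 mural markers 4 rose and 1 fell between SW and HFD mice in SVC, with sums of 257 and 399 CPM in HFD and 750 to 830 CPM in SW libraries, and 2 of the 8 endothelial markers rose. The HFD libraries 212 and 411 differed in the summed markers of epididymal and other epithelium (9.00 and 191 CPM), of B cells (17.9 and 212 CPM) and of red cells (2315 and 44982 CPM). The part of these markers in the changes of Wnt5b and Wnt11 was not tested.

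These calls depend on single libraries. Without SW library 412 or 413, 0 members and 0 of all genes passed in edgeR's test, although 4217 and 5435 genes had an unadjusted p under 0.05, while Wnt5b kept a log2 fold change of 2.21 to 2.46 whichever library was left out. Without HFD library 411, 6 members passed: Wnt5b, Wnt11, Sfrp2, Sfrp5 and Wnt10b higher and Dkk3 lower in SW mice. Without HFD library 212, 2 passed, Wnt5b and Sfrp1, and the log2 fold changes of Frzb, Dkk3 and Wnt5a turned from -1.30, -1.33 and -0.29 to 1.07, 0.12 and 0.59. Wnt11 alone lost its call without 212 or 414, and 1 member remained without 414. For Frzb, Dkk3 and Wnt5a the HFD library 212 was the higher of its group, with 2.65, 13.3 and 9.18 CPM against 0.327, 3.51 and 4.08 CPM in library 411.

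The change from HFD to SW mice differed between the fractions for 1 member, Wnt5b, in a fit of all 15 libraries. The log2 fold change of Wnt5b was smaller in adipocytes than in SVC by 1.43 (log2 difference -1.43, SE 0.35, adjusted p = 0.0104), and the difference stayed past the threshold without any 1 library and with DESeq2 and limma-voom. For 27.1% of all 17441 genes the change differed between the fractions, 15.7% with a higher and 11.4% with a lower log2 difference. Sfrp1, with a log2 difference of -1.34 (SE 0.48, adjusted p = 0.0527), did not pass, but passed in 4 of 8 other ways of processing (DESeq2, limma-voom, RLE factors and thinning). Wnt10b had a log2 difference of -2.49 (SE 0.99, adjusted p = 0.0800), resting on 6 counts in SW and 16 in HFD adipocytes. The number of members was 5 without HFD library 411 of the SVC, and 2 without 212 or without HFD adipocyte library 402.

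**Figure D4:**
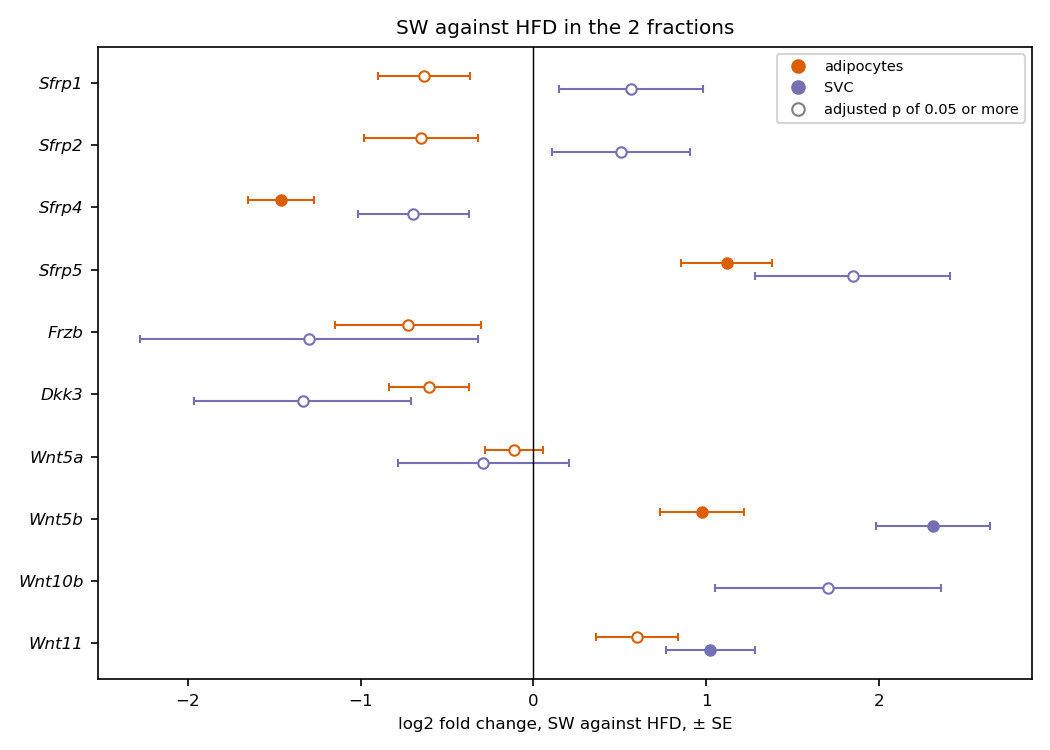
Log2 fold changes between SW and HFD mice in adipocytes and in SVC, each from the fit of its own fraction, with SEs as bars; filled points have an adjusted p under 0.05, and Wnt10b was not tested in adipocytes. Wnt5b is at 0.98 in adipocytes and 2.31 in SVC, while Sfrp4 is at -1.46 and -0.69.

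Between the fractions, Sfrp5 and Wnt5a were higher in adipocytes, and Sfrp2, Sfrp4, Wnt5b, Wnt10b and Wnt11 were lower there, in SW and in HFD mice. In SW mice, 8 of 10 members differed between adipocytes and SVC, 2 higher and 6 lower in adipocytes, against 68.4% of all 17441 genes, 32.8% higher and 35.6% lower. Sfrp5 was higher in adipocytes with a log2 fold change of 4.15 (SE 0.39, adjusted p = 1.31e-06), 188 ± 41.6 CPM against 10.6 ± 4.16 CPM (SD, n = 3 each). Wnt5a was the other member higher in adipocytes, with 14.3 ± 1.37 CPM against 5.90 ± 2.08 CPM (SD, n = 3 each) and a log2 fold change of 1.24 (SE 0.30, adjusted p = 0.00248).

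The 6 members lower in adipocytes of SW mice were Sfrp1, Sfrp2, Sfrp4, Wnt5b, Wnt10b and Wnt11. Among the antagonists the log2 fold change was -1.88 for Sfrp1, -2.88 for Sfrp2 and -2.62 for Sfrp4 (SEs 0.27 to 0.40), with adjusted p-values of at most 1.91e-04. Wnt5b (-2.58, SE 0.24, adjusted p = 1.01e-06) and Wnt11 (-2.13, SE 0.23, adjusted p = 3.91e-06) were lower too. Wnt10b had 34 to 109 counts in the SVC libraries against 1 to 3 in the adipocyte libraries, and the ratio of the pooled levels was 39.4, with an exact 95% interval for counting error alone of 17.8 to 109. Frzb and Dkk3, with log2 fold changes of 0.46 (SE 0.67) and 0.18 (SE 0.40), did not pass.

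In HFD mice, 7 of 10 members differed between the fractions, 2 higher and 5 lower in adipocytes, against 29.1% of all genes, 12.9% higher and 16.2% lower. Sfrp5 was higher in adipocytes with a log2 fold change of 4.97 (SE 0.50, adjusted p = 3.26e-05) and Wnt5a with 1.22 (SE 0.34, adjusted p = 0.0172). Sfrp2 (-1.65), Sfrp4 (-1.77), Wnt5b (-1.15), Wnt10b (-2.66) and Wnt11 (-1.60) were lower in adipocytes, with SEs of 0.25 to 0.67. Without HFD library 411 of the SVC, 4 members passed: Sfrp1, Sfrp4, Sfrp5 and Wnt11. The call of Wnt5a was lost as well without HFD adipocyte library 402 (adjusted p = 0.0566), that of Wnt5b after thinning (adjusted p = 0.0735), and with only the HFD groups in the fit 3 members remained. In LFD mice, without a test, Sfrp5 had 156 to 211 CPM in adipocytes against 4.12 CPM in SVC, and Wnt5a had 17.1 to 20.8 CPM in adipocytes against 31.4 CPM in SVC.

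**Figure D5:**
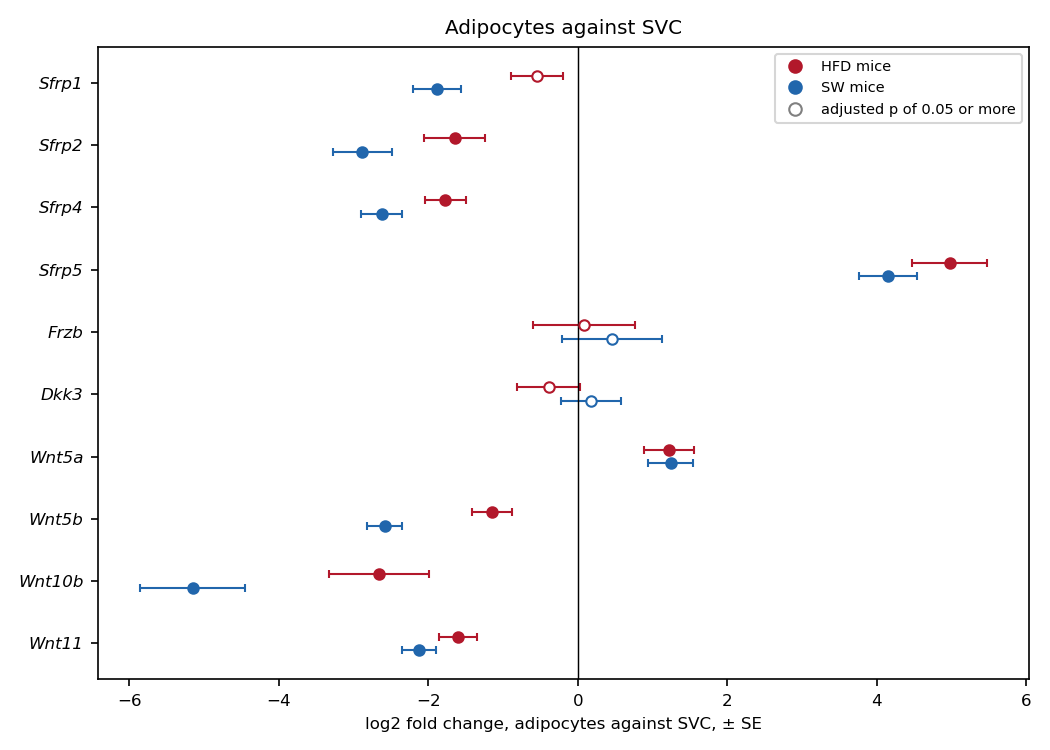
Log2 fold changes of adipocytes against SVC in HFD and in SW mice from a fit of all 15 libraries, with SEs as bars; filled points have an adjusted p under 0.05. Sfrp5 (4.97 and 4.15) and Wnt5a (1.22 and 1.24) lie on the side of adipocytes, and Wnt10b lies farthest on the side of SVC (-2.66 and -5.15).

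Of 82 other genes of the pathway in 7 lists, 54 were tested in adipocytes, and 12 rose and 18 fell between HFD and LFD mice, where 26.5% of all genes were higher and 25.0% lower. Of 5 other Wnt ligands tested, Wnt2 rose and Wnt4 and Wnt6 fell, and of 3 other secreted antagonists Igfbp4 fell. Of 3 agonists and their receptors Rspo1 and Rspo3 fell, R-spondins being secreted proteins that strengthen Wnt signalling. Of 16 receptors and coreceptors 4 rose and 5 fell. The receptor gene Fzd7 rose from 9.04 ± 2.03 CPM to 23.9 ± 6.12 CPM (SD, n = 3 each), with a log2 fold change of 1.41 (SE 0.25, adjusted p = 0.00116), and Fzd8 fell from 11.02 ± 1.26 CPM to 4.62 ± 0.64 CPM, with a log2 fold change of -1.26 (SE 0.17, adjusted p = 2.64e-04). Both genes of Wnt secretion passed, Wls higher and Porcn lower.

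Of 16 intracellular transducers tested, 3 rose and 4 fell between HFD and LFD adipocytes. Dvl3, which relays the signal from Frizzled, rose with a log2 fold change of 1.78 (SE 0.37, adjusted p = 0.00290), and Tcf7l2, the main TCF factor of many tissues, fell from 27.4 ± 1.75 CPM to 10.5 ± 1.07 CPM (SD, n = 3 each), with a log2 fold change of -1.41 (SE 0.14, adjusted p = 4.98e-05). Of 9 feedback and target genes 3 rose (Ccnd1, Myc and Wisp1) and 3 fell (Axin2, Nkd2 and Apcdd1). The cyclin gene Ccnd1 had a log2 fold change of 1.09 (SE 0.20, adjusted p = 0.00139), and the feedback inhibitor Apcdd1 of -1.25 (SE 0.46, adjusted p = 0.0440). The median over all 54 genes was -0.15, against -0.02 for all genes tested, with each symbol taken once.

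Between SW and HFD adipocytes, 4 of the 54 genes rose and 9 fell, where 15.6% of all genes were higher and 15.9% lower. Tcf7l2 rose to 22.8 ± 3.55 CPM (SD, n = 3), with a log2 fold change of 1.13 (SE 0.14, adjusted p = 0.00283), and Igfbp4 and Pygo2 rose with 0.57 and 0.32. Dvl3 (-1.94), Ccnd1 (-1.47) and the coreceptor Lrp6 (-0.76) fell. Between SW and LFD adipocytes, where 17.1% of all genes differed, 1 rose, Myc, with a log2 fold change of 1.03 (SE 0.20, adjusted p = 0.00548), and 4 fell, among them Fzd8 with -0.84 (SE 0.17, adjusted p = 0.00779) and the receptor Ryk with -0.44 (SE 0.11, adjusted p = 0.0177).

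In the SVC, 64 of the 82 genes were tested, and 10 rose and 3 fell between SW and HFD mice, where 5.71% of all genes were higher and 11.7% lower. The largest rises were those of the ligand Wnt6, from 0.808 ± 0.358 CPM (SD, n = 2) to 7.34 ± 1.08 CPM (SD, n = 3), of Wisp2, from 9.90 ± 4.59 CPM to 54.3 ± 6.39 CPM, and of the repressor Tcf7l1, from 25.1 ± 1.35 CPM to 95.1 ± 4.54 CPM. Apc, Lrp6 and Csnk1a1 fell, with log2 fold changes of -2.23, -1.77 and -1.49. The adjusted p-values of these 6 genes were 0.0362 or more, and none of the calls remained without SW library 412 or 413, as for Wnt5b and Wnt11.

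Between the fractions, 69 of the 82 genes were tested, and 16 were higher and 36 lower in adipocytes than in SVC of SW mice, against 10 and 17 in HFD mice. Of all genes, 68.4% differed between the fractions in SW mice and 29.1% in HFD mice. None of the 10 other Wnt ligands tested was higher in adipocytes, while 8 were lower in SW mice and 5 in HFD mice. Among the genes higher in adipocytes were the R-spondin receptor Lgr4, with log2 fold changes of 3.52 in SW and 2.33 in HFD mice, and Tcf7l2 with 2.99 in SW mice. Apcdd1 and the receptor Fzd4 were higher in adipocytes of HFD and of SW mice, with log2 fold changes of 3.61 and 2.98 in HFD mice. Tcf7, a T cell factor, was lower in adipocytes, with log2 fold changes of -2.81 in SW and -2.74 in HFD mice.

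The genes whose log2 CPM went most closely with that of the 3 most abundant members were listed over the 15 libraries, which differ between the fractions and share scaling factors, so that these correlations are a description. For Sfrp5 they were Adipoq (Pearson r = 0.98), Golga7b (0.98) and Sncg (0.98). For Sfrp1 they were Tmem45a (0.98), the collagen gene Col8a2 (0.97) and Sept8 (0.96), and for Sfrp2 they were Itpr3 (0.97), Camkk1 (0.97) and Unc119b (0.97).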

How the data were processed

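The authors aligned reads with Bowtie2 and quantified genes with RSEM. The estimated counts deposited by the authors are whole numbers from RSEM, not normalized, and were used as they stand. Per the labels, the genome build is mm9; tool versions are not given in the sources used here. The labels list 18 libraries in 26 records, 8 of them with 2 runs, and whether runs were added up is not stated. Records of SW adipocytes are paired-end alone, while every other group holds paired-end and single records. The part of the read layout in the differences was not tested. The SW titles name a low fat diet, while the treatment label gives the switch, which was used. The deposited columns carry numbers that are in no label, so each column is tied to its group alone. Another 3 SVC columns matched no label and were not used. No 2 libraries of a group agreed within counting noise (chi-square per degree of freedom 14.3 to 426).

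The quasi-likelihood test of edgeR 4.0.16 (R 4.3.3), in its robust form, was run after filterByExpr (minimum count 10) and TMM scaling. P-values were adjusted over all genes tested by Benjamini-Hochberg, and calls were made at 0.05. Diet groups were compared in a fit of each fraction, fractions in a fit of all 15 libraries. Standard errors are the absolute log2 fold change over the square root of F. CPM use the TMM factors of the joint fit. Comparisons with the single LFD library of the SVC have no test. Transcript lengths and positions are from GENCODE M21 (GRCm38) and promoters from RefSeq (GRCm38.p6); no genome of the files' build was used.

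The named genes are the 10 members; of the pathway lists, per comparison, up to 3 genes a direction that changed most among those past the threshold with groups apart and a mean log2 CPM of 1 or more; genes named from counts of 5 or fewer were chosen after their values were seen. The 3 genes likest to a member are those with the highest Pearson r of log2 CPM (prior count 2). The members and lists were chosen with earlier results of these data known. RSEM divides reads shared by similar transcripts. Counting intervals are exact 95% intervals of the pooled counts. Alternatives were DESeq2 1.42.0, limma-voom (limma 3.58.1), RLE and upper-quartile factors, other filters, thinning to the smallest library, fits of single pairs of groups, and the omission of each library in turn. The test was checked on simulated counts with the same spread for every gene and changes in genes of higher counts alone. That check does not cover genes of few counts or libraries as unlike as those of the SVC. Plots were drawn with matplotlib 3.10.9.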

Additional observations from a re-analysis of the deposited data

Results flagged for a closer look

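For Wnt5b the change between SW and HFD mice differed between adipocytes and SVC by the test of that difference (log2 difference -1.43, adipocytes minus SVC, edgeR adjusted p = 0.0104). It had 2.31 to 2.72 CPM in SW and 1.21 to 1.34 CPM in HFD adipocytes, and 12.1 to 16.7 CPM in SW and 2.40 to 3.26 CPM in HFD libraries of the SVC, higher in 3 of 3 SW libraries of both fractions. The change also differed for 27.1% of all genes, and for Sfrp1 with DESeq2, limma-voom, RLE factors or thinning. No group held 4 or more libraries, so that no library was tested against its group.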

How the results depend on the processing

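No paired analysis was possible because the replicate numbers of the labels are not carried by the deposited columns. With DESeq2, limma-voom, RLE or upper-quartile factors, other filters, thinning, or the compared groups alone, the number of members past the threshold changed by over 1.5 times in these cases. It was 4 after thinning for HFD against LFD adipocytes. For SW against HFD in SVC it was 1 with limma-voom, 1 without a filter and 1 after thinning, and 5222 genes were called by DESeq2 and 1557 by limma-voom. For adipocytes against SVC of HFD mice it was 3, with 2030 genes, when only those groups were fitted. For the difference between the fractions it was 2 with DESeq2, limma-voom, RLE factors or thinning. The cause of these changes was not tested.

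When 1 library was left out, members past the threshold numbered 4 to 6 for HFD against LFD, 1 to 4 for SW against HFD (1522 to 4290 genes) and 0 for SW against LFD in adipocytes, 0 to 6 for SW against HFD in SVC (0 to 6213 genes), 4 to 8 for adipocytes against SVC in HFD mice (2528 to 7044 genes), 8 in SW mice, and 1 to 5 for the difference between the fractions (2936 to 6622 genes). Where a group kept a single library, it was assumed to vary like the others.

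Some log2 fold changes changed sign, and none passed the threshold with the changed sign. Without HFD library 411 of the SVC, Dkk3 passed with the sign it had over all libraries between SW and HFD in SVC (adjusted p = 0.0173) and for the difference between the fractions (adjusted p = 0.0286), and without 212 Frzb did so for adipocytes against SVC in HFD mice (adjusted p = 0.0465). Sfrp2 between HFD and LFD adipocytes was 0.012 with DESeq2, 0.042 without a filter, 0.24 after thinning and -0.26 to 0.31 without 1 library. Between SW and LFD adipocytes Sfrp5 was -0.040 with upper-quartile factors and -0.17 to 0.13 without 1 library, and Sfrp1 -0.13 to 0.45. Between SW and HFD in SVC, without 1 library, Frzb was -2.12 to 1.07, Dkk3 -2.02 to 0.12 and Wnt5a -0.79 to 0.59. For adipocytes against SVC in HFD mice, Frzb was -0.019 with upper-quartile factors, -0.18 after thinning and -0.72 to 2.26 without 1 library, Sfrp1 -1.04 to 0.24 and Dkk3 -1.04 to 0.88, and in SW mice Frzb was -0.032 after thinning. For the difference between the fractions Wnt5a was -0.023 with DESeq2, -0.024 with RLE factors, -0.074 with limma-voom and -0.70 to 0.56 without 1 library, Frzb -1.81 to 1.26 and Dkk3 -0.70 to 1.31.

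Upper-quartile factors moved the median of all genes to -0.12 for HFD against LFD adipocytes, and to -0.18 and -0.13 for adipocytes against SVC in HFD and SW mice. Depth limits Wnt10b in adipocytes and Frzb in all groups, and the single LFD library of the SVC was not tested.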
